A study of Arabidopsis thaliana with 6 samples.

Results

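The genes described here are 10 markers of salicylate and jasmonate defence signalling in *Arabidopsis* roots: *PR1*, *PR2*, *PR5*, *ICS1*, *NPR1*, *NPR3*, *NPR4*, *ORA59*, *PDF1.2a* and *VSP2*. They were taken by name for their place in the pathways, as synthesis gene, receptor, transcription factor or output, and not for their values. Earlier results of these data were known when these genes were chosen. They are 10 of the 33557 genes in the tables, and 6 of them reached a mean of 1 FPKM (fragments scaled to transcript length and to the mapped reads of the library), the level at which genes were tested. The study compared roots of *CEPDL2ox* plants, which carry 35S:CEPDL2, with roots of WT plants, and the ecotype used as WT for overexpression of *CEPDL* genes was Col. There were 3 libraries of each. All plants were 10 days old and had grown under continuous light on agar medium with 10 mM nitrate, given as KNO3, as the only nitrogen source. CEPDL2 is a short polypeptide of the plant-specific class III glutaredoxin family, which the study followed as a shoot-to-root signal of nitrogen status. The 35S promoter is active in most plant tissues, whereas the study placed the native *CEPDL2* gene mainly in leaf phloem, so the root libraries come from plants that express the gene in the root itself. The transgenic line sequenced and the number of plants in each library were not given in the sources used here. P-values therefore measure the spread between these libraries, which the study describes as biological replicates.

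Salicylate is made in plastids through isochorismate and accumulates after attack by biotrophic pathogens. It is sensed by NPR1, a coactivator, and by NPR3 and NPR4, which act as transcriptional corepressors, and all 3 reach DNA through TGA transcription factors. Jasmonate signalling has a MYC branch, marked by *VSP2*, and a branch shared with ethylene, in which the factor ORA59 drives the defensin *PDF1.2a*. Several class III glutaredoxins bind TGA factors, and some of them repress *ORA59* and *PDF1.2a* when overexpressed.

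The overexpressed gene matched the labels: *CEPDL2* (AT3G62960) had 7948, 8838 and 8337 FPKM in *CEPDL2ox* roots, against 3.27, 5.78 and 9.45 FPKM in WT roots. Depth, estimated from the value of a single read, was between 5118000 and 5544000 reads in *CEPDL2ox* libraries and between 5887000 and 6251000 reads in WT libraries. All 10 root markers examined, among them *SHR*, *SCR* and *CASP1*, were above 0 in every library, and their summed level was between 311 and 341 FPKM in *CEPDL2ox* roots and between 292 and 305 FPKM in WT roots. In the limma fit below, *RHD6* (log2 fold change 0.73, adjusted p = 0.034) and *EXP7* (0.44, adjusted p = 0.027) of these markers rose. Both are root hair genes, named after their values were seen, and do not describe root hair genes as a set. Over all tested genes, 3.71% were higher with an adjusted p under 0.05 in that limma fit. The highest value lay in *CEPDL2ox* replicate 1 for 3 of the 10 markers, in *CEPDL2ox* replicate 3 for 2, in WT replicate 2 for 1 and in WT replicate 3 for 4. A list of 19 genes of green aerial tissue stood apart in 1 library: it summed to between 210.3 and 439 FPKM in *CEPDL2ox* roots and to 4032, 515 and 417 FPKM in WT replicates 1, 2 and 3. WT replicate 1 held the highest value of 17 of the 19. In such bulk RNA, fewer cells of a type and less RNA per cell cannot be told apart.

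Expression was compared with limma on log2(FPKM + 1). Genes averaging 1 FPKM or more across the 6 libraries entered the test, 19597 in all. A gene passed when its p, adjusted by Benjamini-Hochberg, was under 0.05. It was called differentially expressed, by the thresholds of the study, when the log2 fold change was also above 1 or below -1. The study applied them in its own analysis, so the calls here, made on log2(FPKM + 1), are not its published gene list. Fold changes on this scale understate the change of low genes. For single genes an exact two-sided permutation test over the libraries was also run, which cannot go below p = 0.10 with 3 against 3.

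Of the 10 genes, only *NPR3* passed, and it rose. Among all tested genes 3.71% passed with a higher level and 2.00% with a lower level in *CEPDL2ox* roots, and the 1 of 6 here is a single gene. *NPR3* was also the only one called higher, against 1.16% of all tested genes, and none was called lower, against 0.424%. The median log2 fold change of the 6 tested genes was -0.08, beside -0.03 over all tested genes. The outputs *PR1*, *PR2*, *PR5* and *PDF1.2a* were at or near 0 in all 6 libraries and were not tested.

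**Figure D1:**
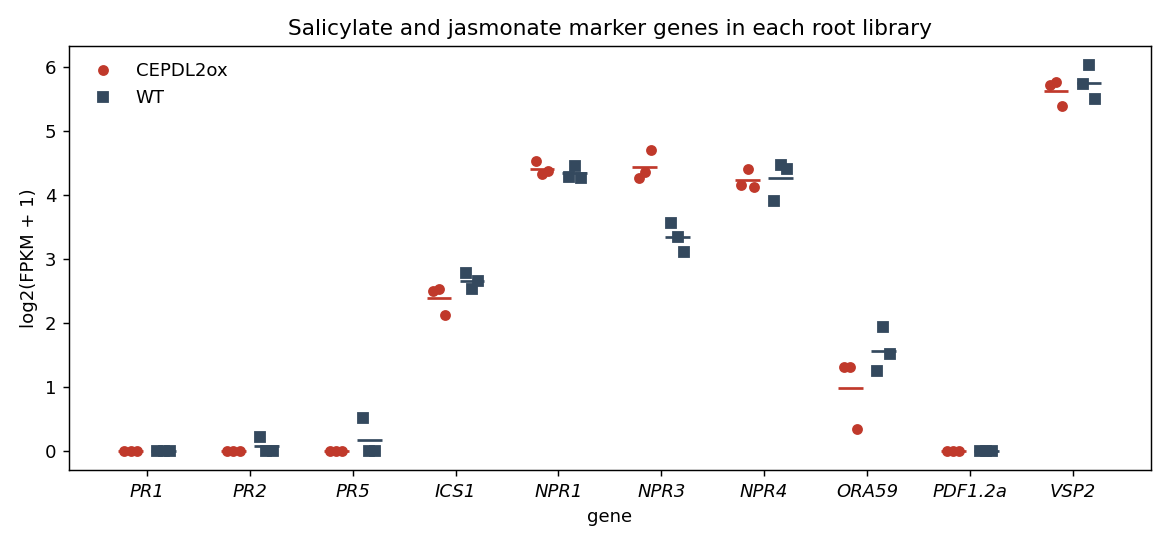
Expression of the 10 genes in each root library as log2(FPKM + 1), with each *CEPDL2ox* library as a circle, each WT library as a square and the mean of 3 libraries as a line. *NPR3* is the gene with clearly separate groups, at 18.3 to 25.2 FPKM in *CEPDL2ox* roots and 7.63 to 10.8 FPKM in WT roots, while *PR1* and *PDF1.2a* lie at 0 throughout.

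Beginning with the receptors, *NPR3* (AT5G45110, chromosome 5 from 18228910 to 18231522 of TAIR10, forward strand) encodes a salicylate receptor that represses defence genes together with NPR4. Its level was 18.3, 19.6 and 25.2 FPKM in *CEPDL2ox* roots, against 10.8, 9.22 and 7.63 FPKM in WT roots. Every *CEPDL2ox* library was above every WT library. The means were 21.0 ± 3.69 and 9.22 ± 1.58 FPKM (SD, n = 3 each), a ratio of 2.28. In the limma fit the log2 fold change was 1.11 (SE 0.16, 95% interval 0.74 to 1.48, adjusted p = 0.0092), and the exact permutation test gave p = 0.10, the smallest it allows. These levels rest on an estimated 228, 242 and 291 reads in *CEPDL2ox* libraries and 143, 130 and 101 reads in WT libraries. By size of fold change *NPR3* stood at place 182 of the 228 genes called higher. For scale, the nitrate transporter gene *NRT2.1* had 1685, 1795 and 1751 FPKM in *CEPDL2ox* roots and 752, 579 and 655 FPKM in WT roots, a log2 fold change of 1.40 (adjusted p = 0.00072 with limma).

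The position of *NPR3* relative to the fold threshold rested on single libraries. Its log2 fold change was 0.97 without *CEPDL2ox* replicate 3 and 0.99 without WT replicate 3, under the threshold of 1, although its adjusted p stayed under 0.05 in both limma fits. WT replicate 1, the library with high aerial markers, had the highest *NPR3* level of the WT libraries, and the log2 fold change was 1.22 without it. With all 33557 genes in the fit and no filter on low values, the adjusted p of *NPR3* was 0.087.

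**Figure D2:**
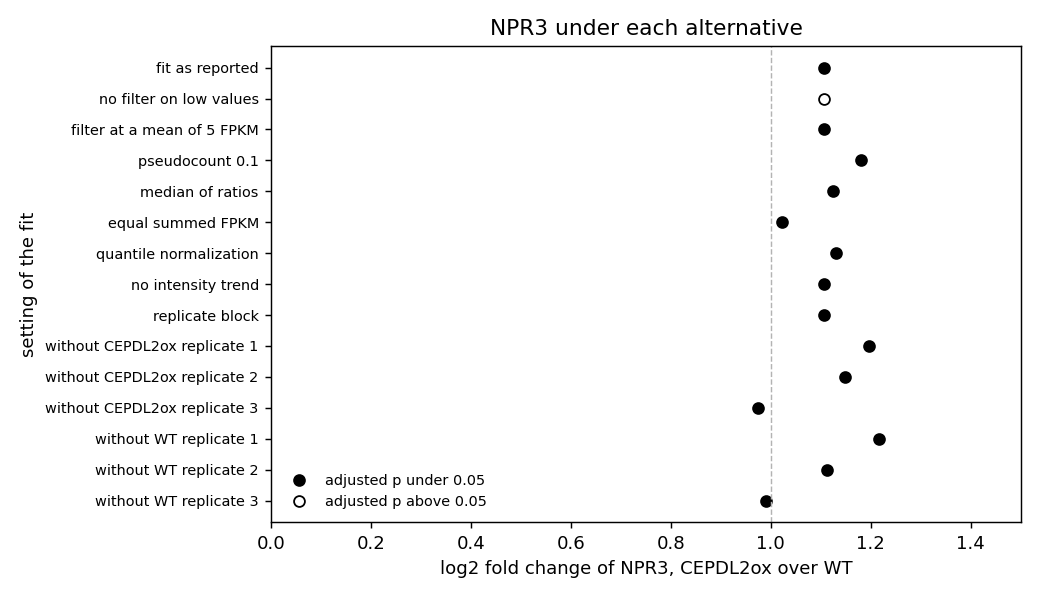
Log2 fold change of *NPR3*, *CEPDL2ox* over WT, under the reported limma fit (top) and 14 alternatives, with filled points for an adjusted p under 0.05 and a dashed line at the fold threshold of 1. Values run between 0.97 and 1.22, and the open point is the fit with no filter, at an adjusted p of 0.087.

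The other receptor genes gave no such separation. *NPR4* (AT4G19660, chromosome 4 from 10696266 to 10698243, reverse strand), the closest relative of *NPR3* and likewise a corepressor, had 16.9, 20.2 and 16.5 FPKM in *CEPDL2ox* roots and 14.1, 21.3 and 20.3 FPKM in WT roots. The groups overlapped, with WT replicate 1 lowest and WT replicate 2 highest. Its log2 fold change was -0.04 (SE 0.16, 95% interval -0.42 to 0.34, adjusted p = 0.92 with limma). *NPR1* (AT1G64280, reverse strand) encodes the coactivator of salicylate-responsive genes. Its listed locus, chromosome 1 from 23850572 to 23855566, is shared by 2 genes and is not the extent of *NPR1* alone. *NPR1* had 22.2, 19.1 and 19.8 FPKM in *CEPDL2ox* roots and 18.5, 21.0 and 18.4 FPKM in WT roots. These groups overlapped too. Its log2 fold change was 0.07 (SE 0.10, 95% interval -0.16 to 0.30, adjusted p = 0.70 with limma). An antisense gene overlaps *NPR1* by 214 bases, and since the library kit does not mark strand, reads from the 2 genes cannot be told apart there. The *NPR3* transcript shares no stretch of 75 bases, the length of a read, with *NPR4* or *NPR1*, even allowing 2 mismatches.

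The balance between the receptor transcripts was also set out within each genotype. In WT roots *NPR1* (19.3 ± 1.46 FPKM) and *NPR4* (18.5 ± 3.91 FPKM, SD, n = 3 each) lay within their spread and *NPR3* lay below both. In *CEPDL2ox* roots the 3 genes had means of 20.3 ± 1.65, 17.8 ± 2.07 and 21.0 ± 3.69 FPKM for *NPR1*, *NPR4* and *NPR3*, which did not differ beyond their spread. The ratio of *NPR3* to *NPR4* within a library, computed after the values were seen, was 1.08, 0.968 and 1.53 in *CEPDL2ox* libraries, against 0.768, 0.433 and 0.376 in WT libraries. The ratio of *NPR3* to *NPR1* was 0.823, 1.03 and 1.28 in *CEPDL2ox* libraries, against 0.582, 0.440 and 0.416 in WT libraries. Neither ratio overlapped between the groups (exact permutation p = 0.10 for each, the smallest possible). Because *NPR3* alone separated while *NPR4* and *NPR1* changed little, both ratios largely repeat the *NPR3* result and add no separate support.

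*ICS1* (AT1G74710, chromosome 1 from 28070295 to 28074148, forward strand) encodes the isochorismate synthase that makes most pathogen-induced salicylate. It had 4.68, 4.79 and 3.35 FPKM in *CEPDL2ox* roots, against 5.92, 4.80 and 5.31 FPKM in WT roots. The groups did not overlap, but *CEPDL2ox* replicate 2 and WT replicate 2 were almost level. The means were 4.27 ± 0.800 and 5.34 ± 0.558 FPKM (SD, n = 3 each), and the log2 fold change of -0.27 (SE 0.17, 95% interval -0.66 to 0.11) did not pass (adjusted p = 0.36 with limma). Without overlap, 16.1% of all tested genes were lower in *CEPDL2ox* roots, as *ICS1* was, and 13.8% were higher, as *NPR3* was, so 1 gene in each direction among the 6 is close to these shares.

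The salicylate outputs gave almost no reads. *PR1* (AT2G14610, chromosome 2 from 6241704 to 6242463), the standard marker of salicylate signalling in leaves, was listed at 0 in all 6 libraries. A count of 0 allows up to 3 reads, which for *PR1* is between 0.857 and 1.05 FPKM depending on the library. *PR2* (AT3G57260, chromosome 3 from 21188517 to 21189859), a beta-1,3-glucanase, was at 0 in all libraries except WT replicate 1, where 0.161 FPKM corresponds to about 1 read. *PR5* (AT1G75040, chromosome 1 from 28177703 to 28178940), a thaumatin-like protein, was likewise above 0 only in WT replicate 1, at 0.434 FPKM or about 2 reads. WT replicate 1 is the library with high aerial markers, whose part in these reads was not tested. Differences in *PR1*, *PR2* or *PR5* between the groups were not detectable at this depth, and these limits cover counting error only.

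On the jasmonate side, no gene passed. *ORA59* (AT1G06160, chromosome 1 from 1883004 to 1883934, forward strand), the ethylene and jasmonate factor named ERF094 in the tables, had 1.49, 1.49 and 0.267 FPKM in *CEPDL2ox* roots, against 1.39, 2.84 and 1.86 FPKM in WT roots. *CEPDL2ox* replicate 3 was lowest, at about 1 read, and the groups overlapped. With about 6, 6 and 1 reads in *CEPDL2ox* libraries and 6, 13 and 8 reads in WT libraries, the log2 fold change of -0.58 (SE 0.34, 95% interval -1.36 to 0.20) had an adjusted p of 0.35 with limma. The interval holds both no change and a halving of its level on this scale. *PDF1.2a* (AT5G44420, chromosome 5 from 17907069 to 17907598), the defensin downstream of ORA59, was listed at 0 in all 6 libraries, as were its close copies *PDF1.2b* and *PDF1.2c*. For *PDF1.2a*, a short transcript, 3 reads correspond to between 2.02 and 2.46 FPKM.

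*VSP2* (AT5G24770, chromosome 5 from 8500476 to 8502224, reverse strand), a vegetative storage protein of the MYC branch, was the most abundant of the 10. It had 51.7, 53.6 and 41.3 FPKM in *CEPDL2ox* roots, against 52.6, 64.5 and 44.6 FPKM in WT roots, and the groups overlapped. Its log2 fold change was -0.13 (SE 0.15, 95% interval -0.48 to 0.22, adjusted p = 0.64 with limma). Its paralog *VSP1* had 23.4, 26.0 and 23.6 FPKM in *CEPDL2ox* roots, against 29.2, 33.6 and 29.6 FPKM in WT roots. The *VSP1* groups did not overlap, but its log2 fold change of -0.33 did not pass (adjusted p = 0.084 with limma). No 75-base stretch of *VSP2* is identical in *VSP1*, and 5.51% of its stretches occur there with at most 2 mismatches.

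The genes around these 10 were examined in 6 lists with 64 genes, of which 50 were tested. In all, 6 passed with a higher and 1 with a lower level in *CEPDL2ox* roots, which is 7 of 50 beside 3.71% and 2.00% of all tested genes. The lists were drawn up with earlier results of these data known, so this count cannot show enrichment. The median log2 fold change over the lists was 0.07.

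**Figure D3:**
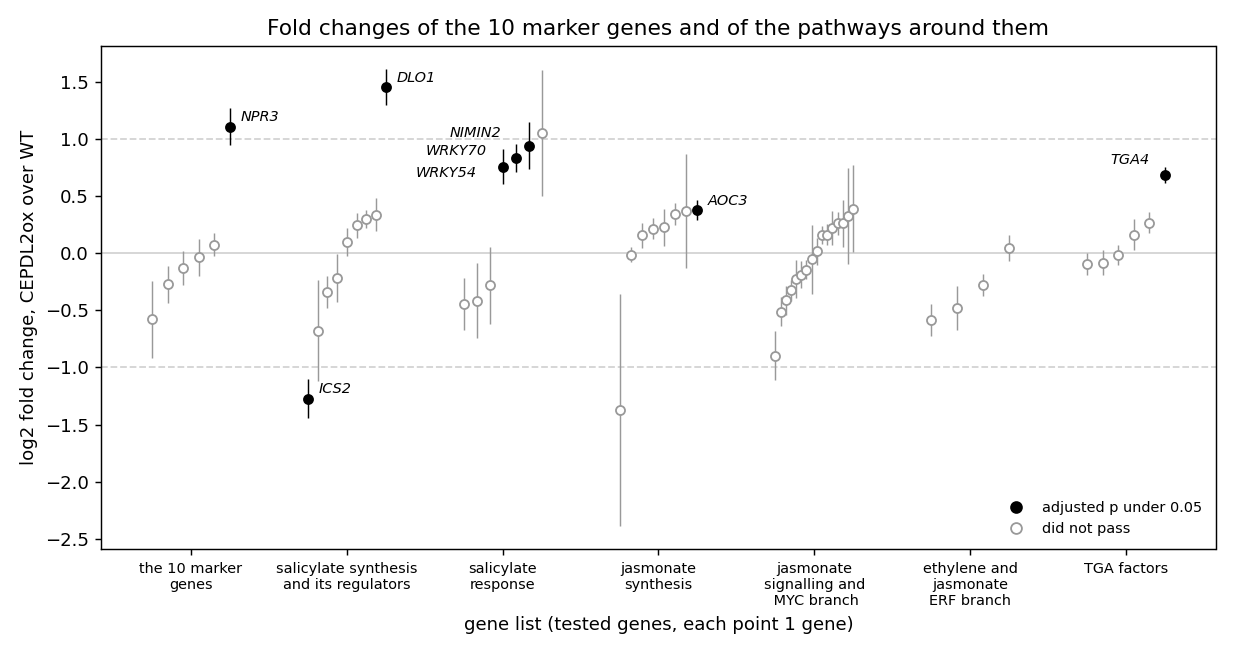
Log2 fold change, *CEPDL2ox* over WT, of the 6 tested genes among the 10 pathway markers and of the tested genes in the 6 pathway lists, each point a gene with its SE, filled where the adjusted p was under 0.05 and with dashed lines at 1 and -1. The 8 filled points include the receptor gene *NPR3* and 7 list genes, of which *ICS2* alone lies below 0.

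In salicylate synthesis and its regulators, 9 of 10 genes were tested, and 1 rose and 1 fell. *DLO1* (AT4G10500), a salicylate 3-hydroxylase that turns salicylate over, had 21.4, 27.2 and 22.5 FPKM in *CEPDL2ox* roots, against 6.40, 9.81 and 8.05 FPKM in WT roots. All *CEPDL2ox* libraries were well above all WT libraries, at a log2 fold change of 1.45 (SE 0.16, adjusted p = 0.0030 with limma). *ICS2* (AT1G18870), the second isochorismate synthase gene, had 11.7, 8.79 and 9.55 FPKM in *CEPDL2ox* roots, against 19.8, 28.9 and 29.0 FPKM in WT roots. Here the order was opposite and again without overlap, at a log2 fold change of -1.27 (SE 0.17, adjusted p = 0.0068 with limma). An opposite-strand gene overlaps *ICS2* by 87 bases. With no filter on low values neither gene passed in the limma fit (adjusted p = 0.055 for *DLO1* and 0.081 for *ICS2*). The ratio of *ICS2* to *ICS1*, computed after the values were seen, was 2.50, 1.84 and 2.85 in *CEPDL2ox* libraries, against 3.34, 6.02 and 5.46 in WT libraries, with an exact permutation p of 0.10, the smallest possible. This ratio largely repeats the separation of *ICS2* and adds no separate support. *DMR6*, a salicylate 5-hydroxylase related to DLO1 and named after its values were seen, had 61.1, 63.2 and 60.4 FPKM in *CEPDL2ox* roots and 48.0, 53.4 and 48.3 FPKM in WT roots, and its log2 fold change of 0.30 did not pass (adjusted p = 0.063 with limma).

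In the salicylate response list, 7 of 9 genes were tested, 3 rose, beside 3.71% of all tested genes, and none fell. Of these 7 genes, 4 had a log2 fold change above 0 and 3 below. The median of 0.76 is the value of a single gene, *WRKY54*, beside -0.03 over all tested genes. *WRKY70* (AT3G56400), a transcription factor that acts in salicylate signalling and dampens jasmonate responses, had 23.3, 25.5 and 31.0 FPKM in *CEPDL2ox* roots, against 13.2, 15.2 and 14.9 FPKM in WT roots. The groups were far apart relative to their spread, with a log2 fold change of 0.83 (SE 0.12, adjusted p = 0.010 with limma). *WRKY54* (AT2G40750), its closest relative, had 11.9, 10.1 and 9.41 FPKM in *CEPDL2ox* roots, against 5.20, 7.01 and 5.23 FPKM in WT roots, a log2 fold change of 0.76 (SE 0.15, adjusted p = 0.031 with limma). *NIMIN2* (AT3G25882), which encodes an NPR1-interacting protein, had 19.6, 26.8 and 28.7 FPKM in *CEPDL2ox* roots, against 11.2, 10.1 and 16.9 FPKM in WT roots, a log2 fold change of 0.94 (SE 0.21, adjusted p = 0.042 with limma). For *WRKY54* and *NIMIN2* the groups did not overlap, but each no longer passed in limma fits with single libraries left out. *NIMIN2* did not pass without any 1 of *CEPDL2ox* replicates 1, 2 or 3 or WT replicates 1 or 2 (adjusted p between 0.069 and 0.14), nor *WRKY54* without any 1 of *CEPDL2ox* replicates 1, 2 or 3 or WT replicates 1 or 3 (adjusted p between 0.064 and 0.11). With no filter on low values none of the 3 passed in the limma fit, with an adjusted p of 0.078 for *WRKY70*, 0.13 for *WRKY54* and 0.20 for *NIMIN2*.

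**Figure D4:**
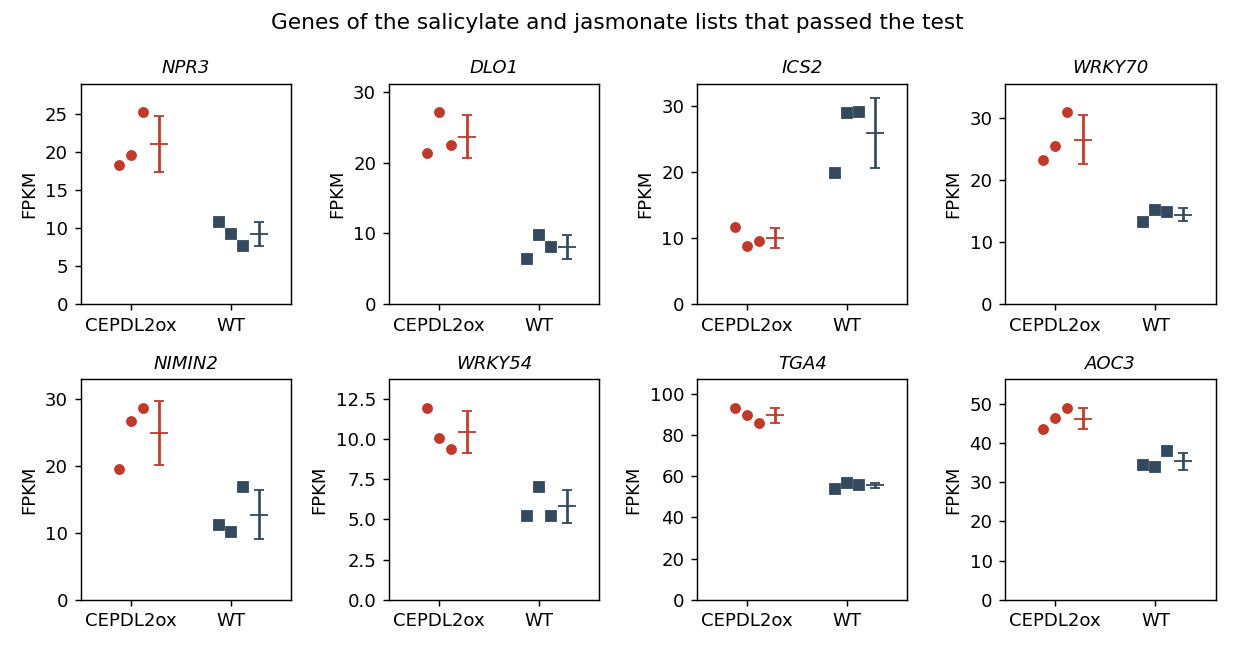
FPKM of the 8 genes that passed, with each *CEPDL2ox* library as a circle and each WT library as a square, on axes that start at 0 and with the mean and SD of 3 libraries beside the points. No gene has overlapping groups, which adds no separate support because the same libraries chose the genes. Of all tested genes, 13.8% were higher and 16.1% lower in *CEPDL2ox* roots without overlap. *ICS2* is the one of the 8 with the lower level in *CEPDL2ox* roots.

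In jasmonate synthesis, 8 of 11 genes were tested, 1 rose and none fell. *AOC3* (AT3G25780), an allene oxide cyclase, had 43.6, 46.4 and 49.0 FPKM in *CEPDL2ox* roots, against 34.4, 34.0 and 37.9 FPKM in WT roots. The change was small, with a log2 fold change of 0.38 (SE 0.08, adjusted p = 0.044 with limma), and did not pass when any 1 of the 6 libraries was left out (adjusted p between 0.065 and 0.12). *LOX2*, the main leaf lipoxygenase of this pathway and named after its values were seen, was at 16.4 FPKM in WT replicate 1 and at 0 in the other 5 libraries. *AOC2*, another allene oxide cyclase gene and also named after its values were seen, was likewise highest in WT replicate 1, at 15.2 FPKM, with 7.44, 9.09 and 5.99 FPKM in *CEPDL2ox* roots and 3.48 and 2.83 FPKM in the other WT libraries. The part of the aerial markers of WT replicate 1 in these values was not tested.

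In jasmonate signalling and its MYC branch, none of the 16 genes tested of 18 passed, and the median log2 fold change was -0.02. The largest change was that of *JAZ9*, a repressor of MYC factors, which had 1.21, 1.21 and 1.12 FPKM in *CEPDL2ox* roots, against 4.04, 3.04 and 2.28 FPKM in WT roots. Its groups did not overlap, but its log2 fold change of -0.90 narrowly missed the threshold (adjusted p = 0.057 with limma). In the ethylene and jasmonate ERF branch, 4 of 10 genes were tested and none passed, and 5 others, the defensins *PDF1.1*, *PDF1.2b*, *PDF1.2c* and *PDF1.3* and the thionin *THI2.1*, were listed at 0 in all libraries. *PR3* encodes a basic chitinase, and an antisense gene overlaps it by 1579 bases, where reads from the 2 genes cannot be told apart. It had 69.0, 76.4 and 63.4 FPKM in *CEPDL2ox* roots, against 87.0, 126.7 and 104.4 FPKM in WT roots. Its groups did not overlap, and its log2 fold change of -0.59 had an adjusted p of 0.052 with limma. That adjusted p was 0.039 without WT replicate 1, and between 0.099 and 0.15 when any other library was left out.

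Of the 6 TGA factors, all tested, only *TGA4* passed. *TGA4* (AT5G10030) had 93.1, 89.9 and 85.9 FPKM in *CEPDL2ox* roots, against 54.0, 56.8 and 55.6 FPKM in WT roots. The libraries within a group lay close together and the groups far apart, with a log2 fold change of 0.68 (SE 0.07, adjusted p = 0.0022 with limma). On the opposite strand 2 genes overlap *TGA4*, by 435 and 70 bases, and reads from the overlaps cannot be told apart. TGA1 and TGA4 form a clade known for nitrate responses in roots as well as for defence. The log2 fold changes of the other 5 TGA genes did not pass (adjusted p between 0.14 and 0.93 with limma).

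TGA factors bind the core motif TGACG, so the 250 bases before each gene start were searched for it on both strands, as TGACG or its complement CGTCA, in the TAIR10.1 assembly with RefSeq gene models. It occurs in 18.6% of 26677 promoters, in 25.4% of those of the genes that passed with a higher level in *CEPDL2ox* roots, and in 15.3% of those that passed with a lower level, beside 19.3% of those of all tested genes. Of the 10 genes, *NPR3*, *NPR4*, *ORA59* and *VSP2* hold it within these 250 bases. Bases farther upstream were not searched, so its absence here does not cover the whole promoter. For *NPR3*, *NPR4* and *ORA59* the RefSeq start lies upstream of the listed start given above, so the motif is farther from the listed one. *NPR3* holds it once, 189 to 149 bases before its RefSeq start with the bases around it (chr5:18228579-18228619, forward strand). *NPR4*, which did not pass, holds it on both strands close to its RefSeq start (chr4:10698813-10698868, reverse strand). Their sequences and those of *ORA59* (chr1:1882668-1882708, forward strand) and *VSP2* (chr5:8502383-8502423, reverse strand) are shown because the motif is present in genes with and without a change, with the motif in capitals.
NPR3: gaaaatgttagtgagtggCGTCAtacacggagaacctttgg
NPR4: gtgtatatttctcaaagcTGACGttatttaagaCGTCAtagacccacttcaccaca
ORA59: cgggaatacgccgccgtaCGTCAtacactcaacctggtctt
VSP2: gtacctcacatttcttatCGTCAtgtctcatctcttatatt

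Of the 7 genes among these 10 and the lists that rose, 5 hold the motif (*NPR3*, *DLO1*, *NIMIN2*, *WRKY70* and *TGA4*, but not *WRKY54* or *AOC3*), beside 12 of the other 66 promoters, or 18.2%. The 7 were chosen by their values, so no test was made. In *DLO1* (chr4:6490927-6490970, forward strand) and *NIMIN2* (chr3:9471081-9471124, reverse strand) both strands form the palindrome TGACGTCA, which occurs in 0.499% of all promoters and in 1.14% of those of the genes that passed with a higher level (8 of 702). It also occurs in 1 of the other 66 promoters of these 10 genes and the lists. *WRKY70* holds the motif at 2 positions (chr3:20910662-20910717, reverse strand), and *TGA4* at 1 (chr5:3144369-3144409, reverse strand). The *TGA4* stretch lies before the RefSeq start of *TGA4* but inside a listed locus that 3 genes share, which runs on to 3145730. It therefore lies within the span of a neighbouring gene, and it is counted among the 5 above. TGACG overlaps the W-box core TTGAC where a T precedes it, as at the *WRKY70* position nearer the gene start. TTGAC itself occurs in 45.0% of all promoters. A match describes these letters and not a bound site. The 4 sequences follow, again with the motif in capitals.
DLO1: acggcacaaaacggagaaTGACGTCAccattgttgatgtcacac
NIMIN2: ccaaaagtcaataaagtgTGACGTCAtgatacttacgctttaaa
WRKY70: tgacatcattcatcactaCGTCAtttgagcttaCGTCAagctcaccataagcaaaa
TGA4: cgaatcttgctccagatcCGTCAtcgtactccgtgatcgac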

How the data were processed

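Total RNA from roots was made into libraries with a TruSeq kit that keeps no strand and sequenced by the authors as single-end 75-base reads. They mapped the reads to TAIR10 in a BaseSpace pipeline and deposited FPKM per gene, 1 table per library. The tool that quantified expression and any further scaling were not given in the sources used here. The sample titles and genotypes gave the group of each of the 6 tables, none of which was left out.

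The tables hold no counts. Depth was estimated from the FPKM of single reads on transcripts of at least 600 bases above 0 in 1 library, with 200 bases taken off the length, and gave the read numbers and the limits for 3 reads. A linear model of log2(FPKM + 1) with group as its only term was fitted by limma 3.58.1 under R 4.3.3, using the eBayes moderation with its trend option. It covered the 19597 genes averaging 1 FPKM or more, over all of which p-values were adjusted by Benjamini-Hochberg. The fit was tested on simulated data. Exact tests went through the 20 assignments of the 6 libraries to groups of 3. Those tests were run, tables joined in pandas 2.3.3 and figures drawn in matplotlib 3.10.9, all under Python 3.11.15.

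The 10 genes, the 6 pathway lists and the markers were chosen with earlier results of these data known. The rule named all 10 genes, the genes of each list with an adjusted p under 0.05 or, where none passed, the largest change, *CEPDL2*, *NRT2.1*, *VSP1*, *PDF1.2b* and *PDF1.2c*. Any other gene printed with a fold change or with FPKM values above 0 is marked in the text. Alternatives tried were no filter or a mean of 5 FPKM, a pseudocount of 0.1, scaling by the median of ratios, by equal summed FPKM or by quantiles, no intensity trend, a replicate block, and each library left out in turn. Positions of genes follow the deposited tables (TAIR10). Promoters come from RefSeq on TAIR10.1, in which 27976 of the 33557 genes matched by identifier at overlapping positions.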

Additional observations from a re-analysis of the deposited data

How the results depend on the processing

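The filter on low values had the widest effect. With no filter, 87 genes were called higher and 24 lower, in place of 228 and 83, and 0 of the 10 genes and 0 genes of the salicylate synthesis, salicylate response and jasmonate synthesis lists passed. Scaling to equal summed FPKM gave 190 genes called higher and 125 lower, a share of 60.3% higher in place of 73.3%. Leaving out a library gave 154 to 206 genes called higher and 49 to 77 called lower, with 54, 53 and 49 lower without *CEPDL2ox* replicate 1, *CEPDL2ox* replicate 3 and WT replicate 2. It left 1 to 2 genes passing in salicylate response, 0 in jasmonate synthesis and 0 to 1 in the ERF branch, in place of 3, 1 and 0.

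The jasmonate synthesis list also had 0 passing genes with equal summed FPKM, quantile normalization, no intensity trend and the replicate block. The MYC branch list had 3 with equal summed FPKM and 1 with no intensity trend. The ERF branch list had 1 with a filter at 5 FPKM, a pseudocount of 0.1, equal summed FPKM, quantile normalization, the replicate block and without WT replicate 1, the gene being *PR3*. The log2 fold change turned its sign for *NPR1* with equal summed FPKM (-0.014), for *NPR4* without *CEPDL2ox* replicate 3 (0.015), WT replicate 2 (0.068) and WT replicate 3 (0.034), and for *VSP2* without WT replicate 2 (0.0040), none of which passed. With a library left out, the log2 fold change lay between -0.21 and 0.07 for *NPR4* and between -0.26 and 0.00 for *VSP2*. Over 16 named genes and 221 values under alternatives, 178 kept the direction and the side of the threshold, 29 lost significance, 9 gained it and 5 changed sign. The cause of these changes was not tested.

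The libraries share replicate numbers in the labels, but deviations of same-numbered libraries correlated at -0.03, 0.02 and 0.0006, so the numbers were not taken as pairs. With the replicate block, 220 genes were called higher and 98 lower, the log2 fold change of *NPR3* was 1.11, and *WRKY54* did not pass (adjusted p = 0.055 with limma). Depth limits *PR1*, *PR2*, *PR5*, *PDF1.2a* and *ORA59*, each with few or no reads.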
